A study of Mus musculus with 8 samples.

Results

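The genes described here were the forkhead transcription factors other than Foxd1, 43 of the 23337 genes in the deposited table. They were chosen by symbol alone, as every row named Fox followed by a letter from a to s and a number, and Foxd1 was left out. Of these 43 genes, 22 had a mean normalised read count of at least 10 over the 8 libraries and were tested, and the other 21 are described without a test. Poly(A) RNA of whole mouse kidneys at stage E13.5 was sequenced, from embryos of a mixed C57BL/6 background. The 4 control libraries came from Smo(flox/+) kidneys, with 1 floxed and 1 wild type allele of Smo, the membrane protein through which cells receive hedgehog signals. The 4 mutant libraries came from Foxd1Cre;Smo(flox/-) kidneys, in which Cre recombinase made under Foxd1, a gene of the renal stroma, can remove the floxed copy and the other copy is null. Every kidney therefore carried a floxed Smo copy, but the mutants also lacked a Smo copy in cells that never make Cre, and the control genotype names no Cre. Litters or dams of the samples are not named in the labels, so the p-values measure the spread between these samples, which may be partly technical.

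Forkhead factors share a winged helix domain that binds DNA, and the letter in each name marks a subfamily of related proteins. Several members act in mesenchyme next to epithelia, and Foxf1, Foxf2, Foxl1, Foxc1 and Foxc2 are known to respond to hedgehog signals in various tissues. Other members drive mitotic genes, answer to insulin through Akt, or set the identity of epithelial, neural and ciliated cells. In the kidney, Foxc1 and Foxc2 act in early mesenchyme and in podocytes, and Foxi1 directs the intercalated cells of the collecting duct.

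The libraries held 10288191 to 13494079 reads in genes, and those of the same genotype differed by more than counting noise (a chi-square per degree of freedom of 2.89 to 10.98). Smo had normalised counts of 2152 to 2294 in controls and 509 to 553 in mutants. Kidney markers were present, all 14 of a list of 14 passing the count minimum. Skeletal muscle genes differed widely between libraries of both genotypes, their summed normalised count running from 123 to 3367 in controls and from 125 to 1838 in mutants, with the highest sums in control 2 and mutant 2. The liver list ran from 30.1 (control 4) to 925 (control 1) in controls and from 56.9 to 280 in mutants. The Y-linked gene Ddx3y had 1518 normalised counts in control 4 and 1390 in mutant 2, and at most 1.70 in the other 6 libraries.

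No forkhead gene other than Foxd1 passed the adjusted test in either direction. By limma with Benjamini-Hochberg adjustment over 13692 genes, 0 of the 22 tested members were lower and 0 were higher in mutants at an adjusted p of 0.05, beside 0.446% of all tested genes called lower and 0.124% called higher. The smallest adjusted p of a member was 0.170, for Foxp2. At an unadjusted p of 0.05, 4 members had lower means in mutants (Foxp2, Foxl1, Foxc1 and Foxc2), or 18.2% of those tested, beside 5.17% of all tested genes. None was higher at that level, beside 3.53% of all tested genes. These 4 include 3 of the 5 tested members linked to hedgehog signals (Foxl1, Foxc1, Foxc2, Foxd2 and Foxm1). That list was chosen with earlier results of these data known. Of its members below the count minimum, Foxf1a and Foxf2 had higher means in mutants, Foxa2 had a lower one, and Foxe1 had no reads. The authors' deposited table called 93 genes lower and 24 higher and held 0 members among them, with an adjusted p of 0.191 for Foxp2 and 0.371 for Foxl1.

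The family as a whole lay close to no difference. The log2 fold change of mutant over control was negative for 13 tested members and positive for 9, with a median of -0.03 beside 0.0037 over all tested genes. Its absolute size had a median of 0.072 beside 0.063 over all tested genes. For 14 members the 95% interval stayed within 0.32 of 0 on the log2 scale. In 1 member, Foxl1, all mutants were below all controls, and 3.0% of all tested genes showed that order. No member had all mutants above all controls, beside 2.31% of all tested genes.

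**Figure D1:**
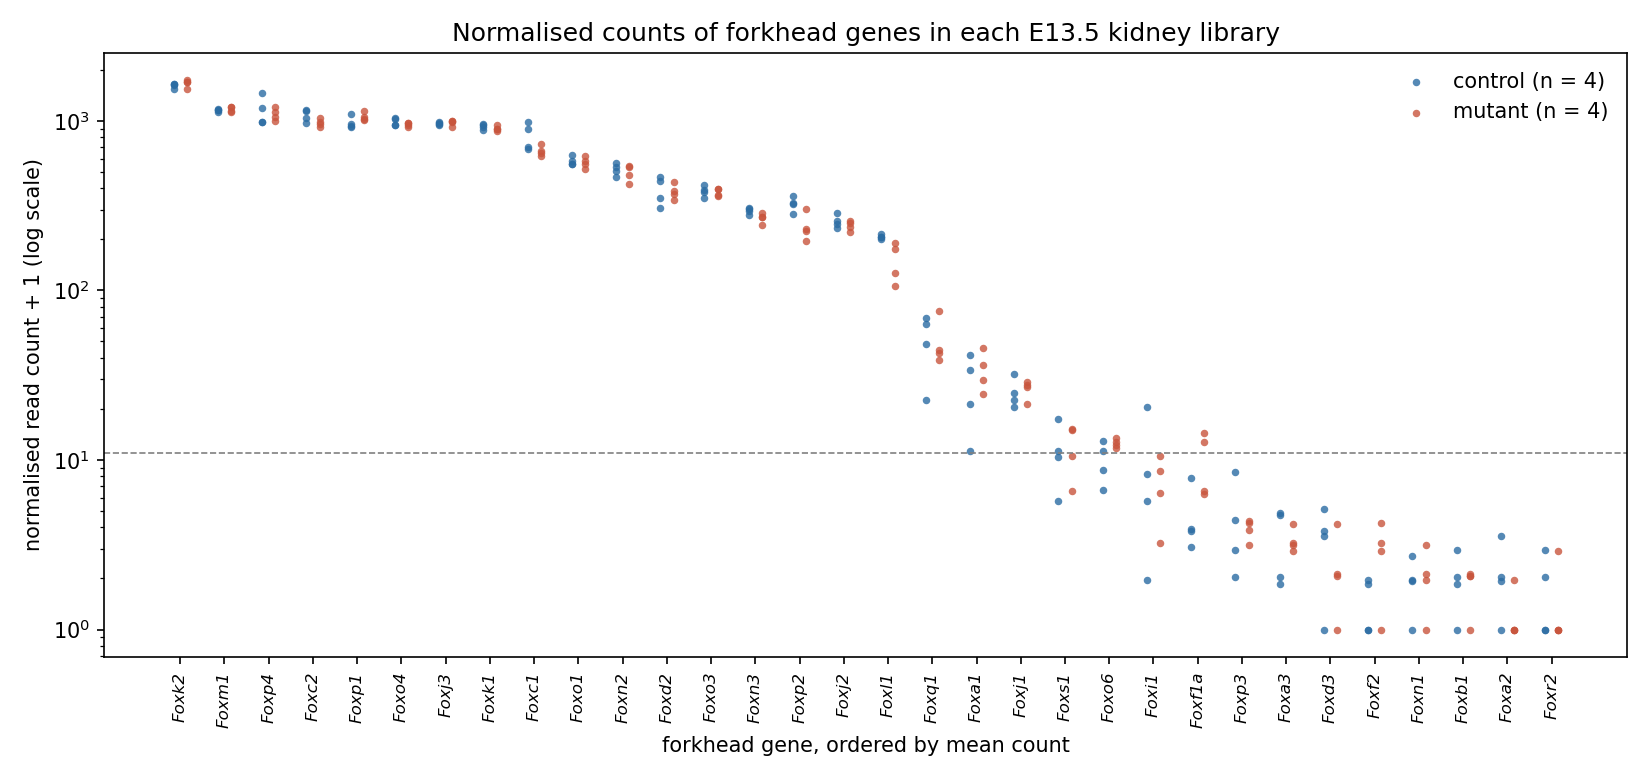
Normalised read count plus 1, on a log axis, of each forkhead gene with at least 5 reads over the 8 libraries, in order of mean count; blue points are the 4 controls, red points the 4 mutants, and the dashed line is the count minimum of 10 plus 1. The points of both genotypes overlap in every tested gene but Foxl1, and the 22 tested genes hold 99.8% of the family's counts.

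**Figure D2:**
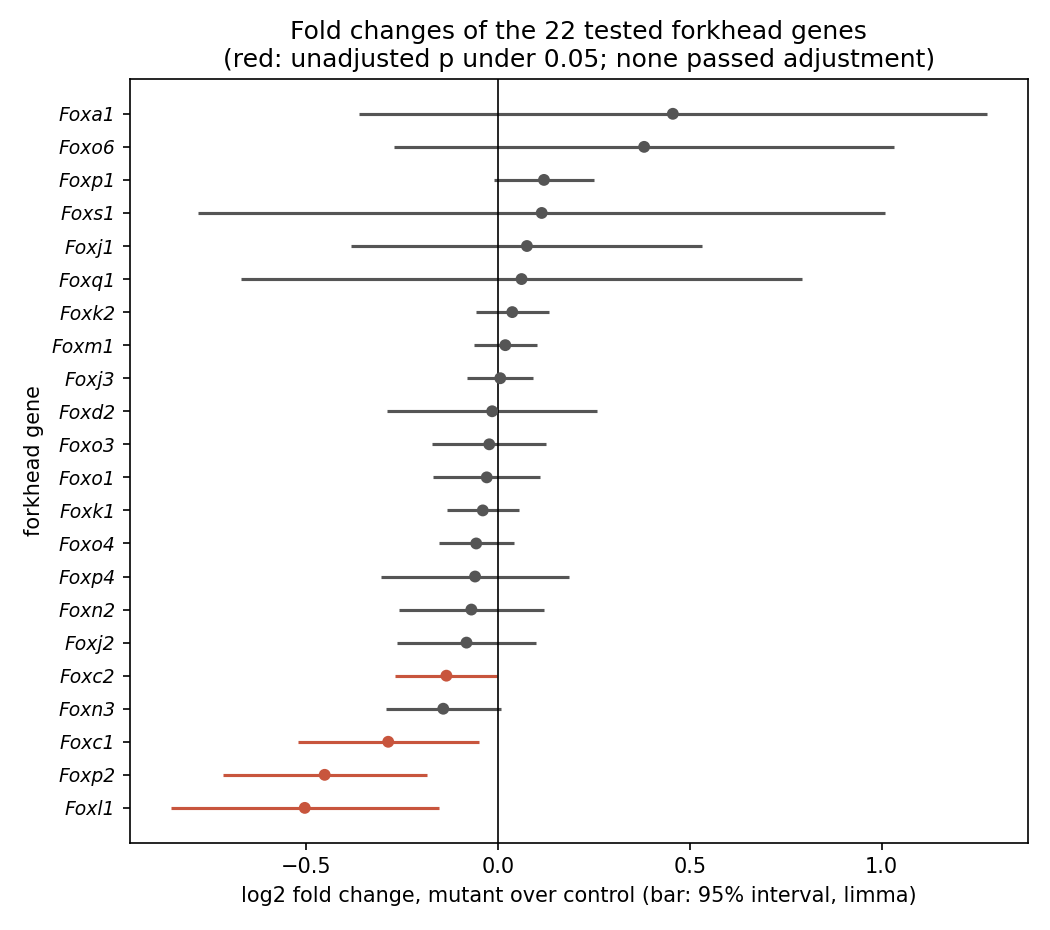
Log2 fold change of mutant over control for the 22 tested members on the horizontal axis, with the 95% interval from limma as a bar; genes with an unadjusted p under 0.05 are red. The 4 red genes lie between -0.50 and -0.13, and none passed adjustment.

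Foxl1, a factor of the mesenchyme around epithelial tubes that is known to be induced by hedgehog signals in the gut, was the only tested member whose groups did not overlap. It had normalised counts of 199.9, 214.0, 204.4 and 205.9 in controls 1 to 4. In mutants 1 to 4 it had 174.8, 105.4, 126.6 and 189.0. The controls lay close together, at 207 to 235 reads each, whereas the mutants were spread out, at 99 to 183 reads. Mutants 2 and 3 were lowest, and mutant 4, at 176 reads, lay just under the controls. The part of counting error in these spreads, and in the lack of overlap, was not tested. The means were 206 ± 5.87 (SD, n = 4) and 149 ± 39.4 (SD, n = 4). The log2 fold change was -0.50 (SE 0.159, 95% interval -0.85 to -0.15), with an adjusted p of 0.283 from limma, so the difference did not pass the test. With both libraries numbered 2 left out it was -0.33 (adjusted p = 0.804). In whole kidney RNA, fewer cells of a type and less RNA per cell cannot be told apart.

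Foxp2, a repressor that pairs with Foxp1 and Foxp4, had the smallest p of the family. Its normalised counts were 279.9, 321.5, 359.4 and 328.1 in controls 1 to 4. They were 223.5, 195.9, 229.6 and 299.6 in mutants 1 to 4. Mutant 4 lay above control 1, and the other 3 mutants lay below every control. The means were 322 ± 32.7 (SD, n = 4) and 237 ± 44.2 (SD, n = 4), a log2 fold change of -0.45 (SE 0.121, 95% interval -0.72 to -0.19), with an adjusted p of 0.170 from limma. Without mutant 4 the difference was -0.57 (adjusted p = 0.0260), and this was the only fit leaving out 1 library in which a member passed. Foxp2 was the only member within 20 Mb of Smo, 14.3 Mb away on chromosome 6 (14901349 to 15441977, with Smo at 29735497 to 29761366, GRCm38). Controls and mutants carry different Smo alleles, so the genotype and DNA inherited along with those alleles cannot be told apart.

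Foxc1 and Foxc2 are close relatives made in mesenchyme, vessels and podocytes. Foxc1 had 701.8, 686.4, 894.2 and 982.5 normalised counts in controls 1 to 4. It had 659.8, 642.1, 616.1 and 731.4 in mutants 1 to 4. Controls 3 and 4 stood above all mutants, while mutant 4 exceeded controls 1 and 2. Its log2 fold change was -0.29 (SE 0.108, 95% interval -0.52 to -0.05), from means of 816 ± 146 and 662 ± 49.4 (SD, n = 4 each), with an adjusted p of 0.424 from limma. With controls 1 and 2 left out it was -0.50 (adjusted p = 0.0328), and with control 4 and mutant 2 left out it was -0.18 (adjusted p = 0.538).

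Foxc2 had 1038, 970, 1135 and 1158 normalised counts in controls 1 to 4. It had 986, 922, 961 and 1041 in mutants 1 to 4. Controls 3 and 4 were again the highest, and mutants 1 and 4 lay above control 2. Its log2 fold change was -0.13 (SE 0.061, 95% interval -0.27 to -0.0020), from means of 1075 ± 87.7 and 978 ± 49.7 (SD, n = 4 each), with an adjusted p of 0.560 from limma. With controls 1 and 2 left out it was -0.23 (adjusted p = 0.193), and with control 4 and mutant 2 left out it was -0.07 (adjusted p = 0.720).

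**Figure D3:**
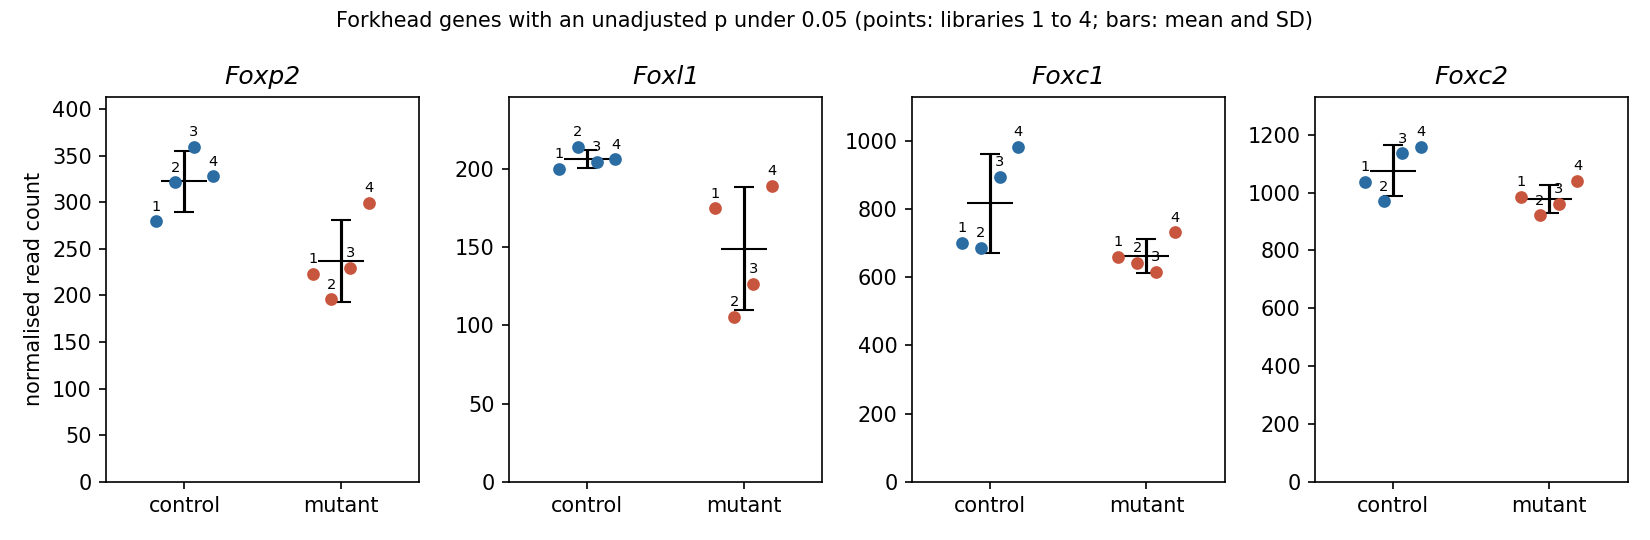
Normalised read count, from 0 on a linear axis, of the 4 members with an unadjusted p under 0.05; numbered points are libraries 1 to 4 of each genotype, and the bars give the mean and SD. The mutants of Foxl1 run from 105 to 189 below controls at 200 to 214, and in the other 3 genes the highest mutant lies above the lowest control.

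Fold changes went in both directions across the marker lists of other tissues and the kidney list. In each list the summed normalised counts of controls and mutants overlapped. The endothelial list had negative fold changes in 9 of 10 tested genes, with summed normalised counts of 5451 to 6375 in controls and 4744 to 6029 in mutants. The leukocyte list had them in 8 of 8, with sums of 469 to 786 in controls and 341 to 596 in mutants. The skeletal muscle list had them in 9 of 9, and the ureter mesenchyme list in 5 of 8, with overlapping sums of 2722 to 3177 in controls and 2509 to 3161 in mutants. They were found in 2 of 4 liver genes, 3 of 4 nerve and glia genes, 1 of 2 gonad and adrenal genes and 2 of 4 cartilage and bone genes. No gene of these 8 lists was at 0 in all libraries, and none passed the adjusted test. Over all tested genes, 48.1% had negative fold changes.

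The genes with the smallest p in those lists had log2 fold changes of -0.28 for Tek (endothelium), -0.66 for Laptm5 (leukocytes), -0.55 for Tnnt3 (muscle) and -0.50 for Myh11 (ureter). They were 0.38 for Apoa1 (liver), 0.25 for Elavl4 (nerve), 0.14 for Star (gonad and adrenal) and 0.36 for Col9a1 (cartilage). The adjusted p of these 8 ran from 0.219 for Laptm5 to 0.943 for Apoa1. Apoa1 had few counts, and its mean count was lower in mutants (9.57) than in controls (12.5), against the sign of its log2 fold change. Control 1 had 40.0 normalised counts of it, and the other controls 1.94 to 4.13. The kidney list, which holds Foxd1, had positive fold changes in 10 of 14 genes, with a median of 0.12, and summed to 16112 to 17552 in controls and 16563 to 17445 in mutants. At an unadjusted p of 0.05 from limma, 7 of these 14 genes were higher in mutants, beside 3.53% of all tested genes. At that level 2 were lower, beside 5.17%. In that list Foxd1 fell and Pax2, a factor of nephron progenitors and the collecting system, rose from 1461 ± 82.5 to 1819 ± 121 (SD, n = 4 each), at a log2 fold change of 0.32 (adjusted p = 0.0332 from limma). Removing 1 library ended the Pax2 call in 6 of 8 fits, all but those without control 4 or mutant 4, and it was also lost without controls 1 and 2 and without both libraries numbered 2. The part of these lists in the values of Foxl1, Foxp2, Foxc1 and Foxc2 was not tested.

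The remaining factors linked to hedgehog signals were at or near the limit of detection, apart from Foxd2 and Foxm1. Foxf1, which acts in the mesenchyme of gut and lung and is listed under its older symbol Foxf1a, had 8, 2, 3 and 3 reads in controls 1 to 4. It had 14, 5, 5 and 11 reads in mutants 1 to 4, and the ranges overlapped at the 8 reads of control 1. Its relative Foxf2 had 1, 0, 1 and 0 reads in controls and 2, 0, 2 and 3 in mutants. Foxa2, a factor of floor plate and endoderm, had 3, 1, 0 and 1 reads in controls and 1, 0, 0 and 0 in mutants. Foxe1, a thyroid factor, had 0 reads in every library. A count of 0 allows up to 3 reads, or 2.55 to 3.36 normalised counts depending on the library, and covers counting error only. At this depth no difference in Foxf2, Foxa2 or Foxe1 was detectable.

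Foxl1 and Foxc2 are 8.8 kb apart on chromosome 8 (121127685 to 121130644 and 121116171 to 121118895), and Foxf1a lies 28.0 kb from Foxc2 on the other side (121084386 to 121088154). Per kilobase of exon, Foxc2 averaged 377 normalised counts and Foxl1 65.6, while Foxf1a had 51 reads in all libraries together. A like cluster on chromosome 13 holds Foxq1, Foxf2 and Foxc1, with gaps of 64.8 and 175.2 kb. Foxc1 (31806646 to 31810635) averaged 127 per kilobase and Foxq1 10.3 (185 and 17.7 over their RefSeq spans), and Foxf2 had 9 reads in all libraries together. Foxd2 had a silent neighbour on chromosome 4, since Foxe3, a lens factor 15.5 kb away, had 1 read in all.

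Foxd2, a relative of Foxd1 made in kidney mesenchyme, had 307.1, 349.4, 439.8 and 465.4 normalised counts in controls 1 to 4. It had 371.5, 338.6, 433.5 and 385.6 in mutants 1 to 4, all of them inside the range of the controls. The log2 fold change was -0.02 (95% interval -0.29 to 0.26), with an adjusted p of 0.985 from limma, and it became positive, at 0.13, with control 4 and mutant 2 left out. Foxp4, a repressor best known from lung and gut, had 988, 989, 1194 and 1460 in controls and 1053, 1000, 1128 and 1214 in mutants. Its log2 fold change was -0.06 (95% interval -0.31 to 0.19, adjusted p = 0.937), and it was 0.10 without control 4 and mutant 2. Controls 3 and 4 were both above controls 1 and 2 in 9 of the 22 tested members, namely Foxc1, Foxc2, Foxd2, Foxk1, Foxk2, Foxm1, Foxn2, Foxp2 and Foxp4. The share of all tested genes in that order was not counted, so the order may not be particular to this family.

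Foxd1 fell in mutants (log2 fold change -1.29, adjusted p = 0.0251), and its own normalised counts also differed among controls, at 1038, 1138, 1693 and 2039 in controls 1 to 4. The Foxd1Cre allele in common use disrupts Foxd1 itself, but which allele these mice carried is not labelled. The Foxd1 call was lost in 4 of the 8 fits in which 1 library was removed (control 3, mutant 1, mutant 2 or mutant 3), with an adjusted p as high as 0.109 and log2 fold changes of -1.37 to -1.18. It was also lost without both libraries numbered 2 (-1.29, adjusted p = 0.124). In every other alternative the call held. Its adjusted p was 0.0283 with edgeR, 0.000753 with DESeq2 and 0.00704 from limma without controls 1 and 2. As in Foxd2 and Foxp4, controls 3 and 4 were the highest. Mutants 3 and 4 were also the highest mutants for Foxd1, at 484, 469, 682 and 738 in mutants 1 to 4. The liver sum was lowest in the same pair of controls and in mutants 3 and 4, at 280, 220, 86.3 and 56.9 in mutants 1 to 4. The sum of the intercalated cell list ran the same way, at 1959, 1629, 1386 and 1120 in controls 1 to 4. It was 1895, 1787, 1453 and 1393 in mutants 1 to 4. Most of that sum was Tfcp2l1, a factor of the collecting duct, at 1525, 1459, 1206 and 891 in controls 1 to 4. The part of these differences in the forkhead values was not tested.

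The promoters of Foxc1, Foxd2 and Foxp4 are shown because, of the 9 members with controls 3 and 4 above the other controls, these had the largest coefficients of variation among controls (17.9%, 19.1% and 19.3%), a choice made after the values were seen. Each run is the 250 bases before the RefSeq start site in GRCm38.p6, on the gene's strand, with capitals marking the GC box GGGCGG or its reverse complement CCGCCC. They lie at chr13:31806396-31806645 (plus strand), chr4:114908899-114909148 (minus strand) and chr17:47924633-47924882 (minus strand).
Foxc1: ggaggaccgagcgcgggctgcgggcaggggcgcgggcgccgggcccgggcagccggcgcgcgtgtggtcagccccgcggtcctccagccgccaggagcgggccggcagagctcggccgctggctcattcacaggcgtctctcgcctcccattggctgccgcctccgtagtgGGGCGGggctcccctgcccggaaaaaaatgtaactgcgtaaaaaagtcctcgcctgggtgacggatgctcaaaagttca
Foxd2: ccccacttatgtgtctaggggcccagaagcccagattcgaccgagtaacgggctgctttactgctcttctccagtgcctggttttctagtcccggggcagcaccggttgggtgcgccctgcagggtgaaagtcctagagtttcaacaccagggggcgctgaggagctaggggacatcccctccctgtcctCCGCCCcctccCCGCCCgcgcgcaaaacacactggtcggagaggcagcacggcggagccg
Foxp4: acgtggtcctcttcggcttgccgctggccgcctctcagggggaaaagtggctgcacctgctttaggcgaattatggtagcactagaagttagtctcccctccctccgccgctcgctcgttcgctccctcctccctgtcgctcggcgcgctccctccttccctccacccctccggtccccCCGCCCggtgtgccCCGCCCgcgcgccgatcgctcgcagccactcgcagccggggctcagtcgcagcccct
The GC box occurs 1 time in the Foxc1 run and 2 times in each of the others.

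RefSeq promoters were found for 27 of the 43 members, with 32 promoters in all, and the GC box was in 68.8% of them on either strand, beside 32.7% of 32817 mouse promoters of the same length. The median GC content was 62.4% in the members and 52.4% in all, and the difference in GC box share was not separated from it. The core of the Gli binding site, GACCACCCA, was in 0 of the 32 and in 0.225% of all promoters. Foxl1, Foxc2, Foxp2, Foxf1a, Foxm1 and Foxe1 had no promoter among the 32, so they were not searched. So rare a core would be absent from most sets of 32 promoters. The forkhead core TGTTTAC was in 1 of the 32, that of Foxa1, or 3.125%, beside 3.16% of all. CCAAT was in 40.6% beside 33.8% and TATAAA in 9.4% beside 12.4%. These letters were searched on both strands, and a match or its absence describes this window only.

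Foxm1, which switches on genes of mitosis, was among the steadiest members. Its normalised counts were 1132, 1152, 1165 and 1169 in controls 1 to 4 and 1138, 1211, 1200 and 1131 in mutants 1 to 4. The mutants spanned the controls, and the log2 fold change was 0.02 (95% interval -0.06 to 0.10, adjusted p = 0.945). Of 18 genes known as Foxm1 targets, all tested, 0 passed in either direction, and their median log2 fold change was -0.0014. Top2a, a topoisomerase of dividing cells, had the smallest p of that list, at a log2 fold change of 0.06 (adjusted p = 0.697).

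The FoxO factors, which leave the nucleus when insulin signals activate Akt, did not pass the test either. Foxo4, an X-linked member, was the highest of them per kilobase of exon, with 1022, 1044, 944 and 950 normalised counts in controls 1 to 4. Its mutants had 966, 948, 920 and 969, within or just under the control range (log2 fold change -0.06, 95% interval -0.16 to 0.04, adjusted p = 0.813). Foxo1 had means of 577 and 566 normalised counts, and Foxo3 had 385 and 379, with log2 fold changes of -0.03 and -0.02. Foxo6 stood near the count minimum, at 8.91 ± 2.77 in controls and 11.5 ± 0.718 in mutants (SD, n = 4 each), with an adjusted p of 0.813.

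The 22 genes listed as FoxO targets had 0 called in either direction and a median log2 fold change of -0.03. Cited2, a transcriptional co-regulator, had the smallest p of them, at 916 ± 27.5 in controls and 1026 ± 44.8 in mutants (SD, n = 4 each), and the log2 fold change of 0.16 did not pass (adjusted p = 0.171). Of 22 genes that regulate FoxO proteins, such as insulin receptor substrates and Akt kinases, 1 fell and 0 rose, with a median of -0.0024. The gene that fell was Irs1, an adaptor that carries the insulin receptor signal to Akt. It had 543.5, 627.5, 572.6 and 600.8 normalised counts in controls 1 to 4 and 472.7, 487.7, 450.3 and 491.9 in mutants 1 to 4, with no overlap. The log2 fold change was -0.30 (SE 0.056), with an adjusted p of 0.0437. That call was close to the threshold, since removing 1 library ended it in 7 of 8 fits, with an adjusted p as high as 0.158, and the log2 fold change stayed between -0.33 and -0.27. The exception was the fit without control 1 (adjusted p = 0.0453). The call was also lost with no count filter (adjusted p = 0.0503) and in the 3 fits without a pair of libraries (0.0859 to 0.271).

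Of the broadly made members, Foxk1, Foxk2 and Foxj3 differed little between libraries, with coefficients of variation of 3.63%, 4.23% and 2.57% over all 8. Foxk2, a repressor found in most tissues, had 1631, 1552, 1645 and 1653 normalised counts in controls 1 to 4 and 1731, 1702, 1533 and 1686 in mutants. Its relative Foxk1 had 885, 917, 947 and 959 in controls and 894, 892, 873 and 947 in mutants. Both ranges overlapped, with log2 fold changes of 0.04 (adjusted p = 0.891) and -0.04 (adjusted p = 0.877). Foxj3 varied least among the controls of all tested members, with a coefficient of variation of 1.42% at 951 to 1132 reads each. Its means were 967 ± 13.8 and 971 ± 35.4 (SD, n = 4 each). Foxn3 averaged 294 in controls and 267 in mutants (adjusted p = 0.611), and Foxp1 977 and 1060 (adjusted p = 0.636), and neither passed. Foxn2 and Foxj2 had log2 fold changes of -0.07 and -0.08.

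Members of epithelia and ciliated cells were low. Foxa1, made in the lining of the lower urinary tract and in endoderm, had 40.8, 33.1, 20.3 and 10.3 normalised counts in controls 1 to 4 and 44.9, 28.8, 23.5 and 35.4 in mutants 1 to 4. Its controls spread more than those of any other tested member, with a coefficient of variation of 51.6%, and control 4 was lowest. The log2 fold change was 0.46 (95% interval -0.36 to 1.27, adjusted p = 0.821), and it was 0.14 without control 4 and mutant 2 and 1.09 without controls 1 and 2. Foxq1, an epithelial factor, had 68.0, 62.0, 47.5 and 21.6 in controls and 74.5, 43.7, 38.1 and 41.9 in mutants (adjusted p = 0.980). Control 4 was again lowest, as it was for the liver sum and the intercalated cell sum, the latter mostly Tfcp2l1. The part of these sums in this was not tested.

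Foxi1 had a mean normalised count of 7.16, below the minimum, with 23, 7, 1 and 5 reads in controls 1 to 4 and 8, 9, 2 and 5 in mutants. A list of 10 genes of intercalated cells had 9 in the table and 3 tested, with 0 called. Tfcp2l1, a transcription factor of the collecting duct, had the smallest p, at 1525, 1459, 1206 and 891 in controls and 1565, 1474, 1312 and 1196 in mutants (adjusted p = 0.856). Foxj1, the master factor of motile cilia, averaged 24.0 in controls and 25.1 in mutants (log2 fold change 0.07). A list of 20 motile cilia genes had 11 in the table and 5 tested, with 0 called. Rfx3, a regulator of ciliary genes, had the smallest p of them (adjusted p = 0.711). Foxs1, a gene of vessel-associated cells, averaged 10.2 and 10.9 and had the widest spread among mutants, with a coefficient of variation of 37.9%. Its reads were few, at 15, 9, 5 and 13 in mutants 1 to 4.

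Most of the 21 members below the minimum were close to silent, 16 of them with at most 10 reads over the 8 libraries. Foxp3, which marks regulatory T cells, had 4, 1, 2 and 8 reads in controls and 3, 2, 3 and 3 in mutants, and its exons overlap those of genes on the opposite strand. Foxa3, a liver factor, had 1 to 4 reads in each library. Foxd3, a factor of neural crest, had 15 reads in all. Foxn1 of the thymus had 8 reads, Foxb1 had 7, Foxr2 had 5, and Foxh1, a partner of Smads, had 3. Foxi3 and Foxl2, the latter an ovarian factor, had 2 reads each, and Foxd4, Foxe3, Foxn4 and Foxr1 had 1 each. Foxb2 and Foxi2 had 0 reads in every library, as did Foxe1, with the same limit of 3 reads.

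Per kilobase of exon, a scale that allows levels of different genes to be compared, Foxc2 was the highest member at 377 normalised counts, the mean of all 8 libraries. It was followed by Foxk2 at 312, Foxo4 at 278, Foxp4 at 229, Foxm1 at 202, Foxd2 at 149, Foxc1 at 127 and Foxk1 at 121. Foxc2 lay above Foxk2 in every pair of libraries, as did Foxm1 above Foxd2 and Foxk1 above the next gene, Foxj3 at 88.3. The neighbours from Foxk2 to Foxm1, and from Foxd2 to Foxk1, overlapped and so have no firm order. The place of Foxc1 depends on its gene model. The GENCODE vM21 exons sum to 5.84 kb, whereas the RefSeq gene spans 3.99 kb, over which it would have 185 per kilobase and stand above Foxd2. Foxl1 reached 65.6 per kilobase and Foxp2 17.1.

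The spread between libraries was itself uneven across the family. It includes counting error, which weighs most on genes with few reads and was not separated out. Among controls the coefficient of variation of the 22 tested members had a median of 8.25%, beside 7.57% over all tested genes, and among mutants the medians were 7.09% and 6.82%. Control 4 was the highest control in 9 members and the lowest in 5. The 9 were Foxc1, Foxc2, Foxd2, Foxk1, Foxk2, Foxm1, Foxn2, Foxp1 and Foxp4. The 5 were Foxa1, Foxj3, Foxo6, Foxq1 and Foxs1. How often control 4 was highest or lowest over all tested genes was not counted.

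**Figure D4:**
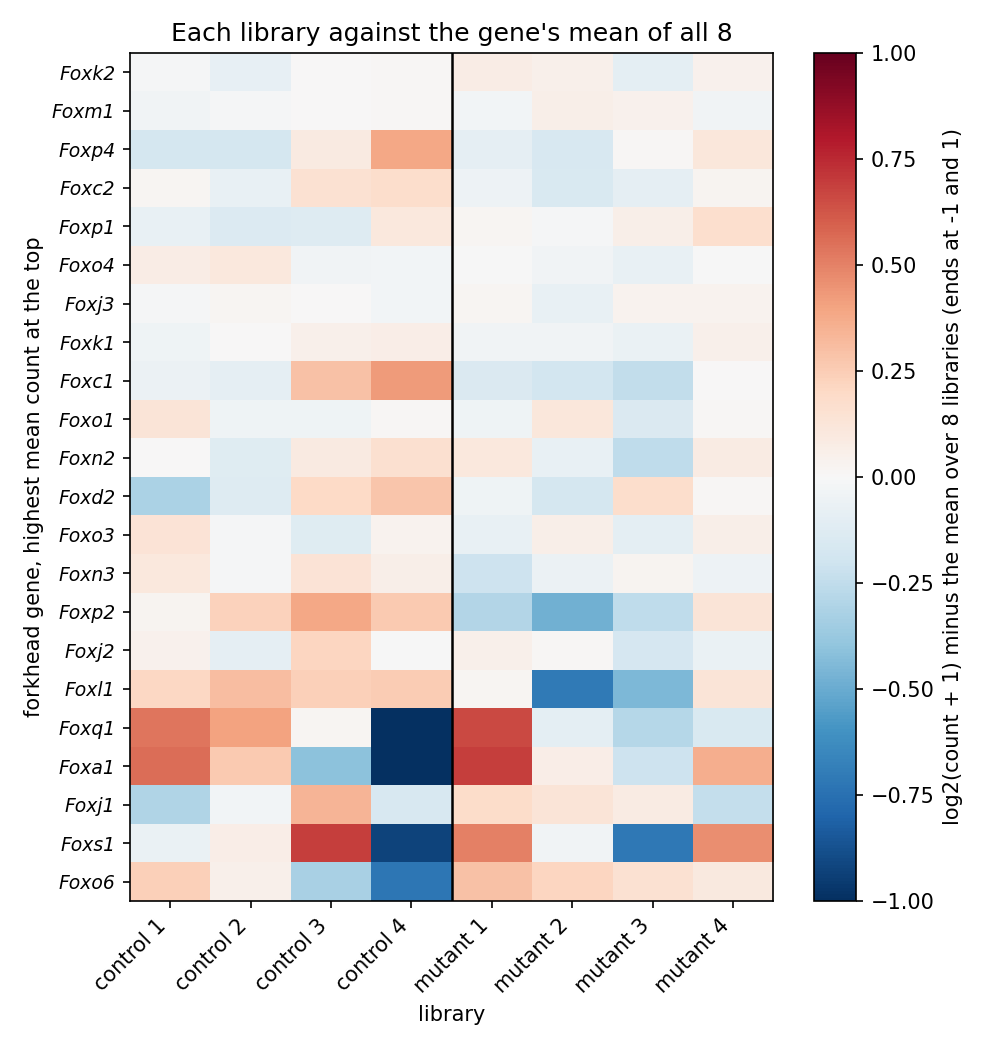
Each tested forkhead gene (rows, highest mean count at the top) in each library (columns), coloured by log2(count + 1) minus the gene's mean over the 8 libraries, red for above and blue for below, with the colour scale ending at -1 and 1. Foxl1 is lowest in mutants 2 and 3, at -0.71 and -0.45, and control 4 is at 0.43 for Foxc1 and at -1.32 for Foxa1.

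Of the direct hedgehog feedback genes, a list of 4, 1 fell and all had negative log2 fold changes, with a median of -0.50. Gli1, a transcription factor induced by the pathway, was the gene that fell, from 413 ± 36.2 to 259 ± 29.4 (SD, n = 4 each), with a log2 fold change of -0.68 and an adjusted p of 0.0102 from limma. Its adjusted p was 0.0517 without control 3 and 0.0686 without both libraries numbered 2. The 5 tested forkhead genes linked to hedgehog signals had a median of -0.13, with 4 negative and 1 positive. Below the count minimum, Foxf1a and Foxf2 had higher means in mutants, and Foxa2 had a lower one. Foxe1 had no reads.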

How the data were processed

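Poly(A) RNA of 8 kidney samples was sequenced after a TruSeq library preparation from total RNA, per the labels' protocols. The authors deposited 1 table of 23337 genes, in which a signal value is the number of reads of a gene after division by the size factor of its library. The submitters' processing notes name DESeq2 1.4.5, TopHat2 2.0.12 and HTSeq, and the build mm10 (GRCm38). Which annotation and strand setting the counting used is not given in the sources here, though the abbreviation Unstr in the table's name may stand for unstranded counting. The exons of 3 tested members overlap a gene on the opposite strand. The deposited table also holds the authors' ratio of group means, its log2 and p-values. Every deposited value was a whole number of reads within 0.01 read (100% of values), so whole reads were recovered.

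The signal was transformed as log2(value + 1), and the fold changes are on that scale, which understates changes of low genes. The 13692 genes averaging 10 or more were tested with limma 3.58.1 in R 4.3.3, with an intensity trend and genotype as the only term, two-sided, with Benjamini-Hochberg adjustment over all of them at 0.05. The fit was first tested on simulated data. The alternatives were a pseudocount of 0.5, no filter, a minimum mean of 50, TMM scaling, edgeR 4.0.16 and DESeq2 1.42.0 on recovered reads, a replicate block, and leaving out libraries singly or in pairs. The pairs were controls 1 and 2, both libraries numbered 2, and control 4 with mutant 2, the last being the only libraries with high Ddx3y. The design expected normalised values, so count tests stayed alternatives.

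The members and gene lists were chosen with earlier results of these data known. Every member is named except 1 that is not reported here. Values in every library are given for members with a p under 0.05, members linked to hedgehog signals, the 8 highest per kilobase, and members within 20 Mb of Smo. From each other list the called genes are named, or else the gene with the smallest p. Exon lengths came from GENCODE vM21 and promoters from RefSeq GRCm38.p6. Gene spans from RefSeq were added for Foxc1 and Foxq1 after their values were seen. Sets were described by counts and medians and were not tested.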

Additional observations from a re-analysis of the deposited data

Results flagged for a closer look

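Foxq1 in mutant 1 had 74.5 normalised counts, apart from the 38.1 to 43.7 of the other 3 mutants. It was the only one of 44 groups of 4 libraries (22 members, 2 genotypes) with a library that far from the rest, and chance puts about 1 in 20 groups there.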

How the results depend on the processing

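The count of members called was 0 lower and 0 higher in the reported fit and in all 18 alternatives but 2, which called 1 member lower. These were the fit without mutant 4 (Foxp2) and the fit without controls 1 and 2 (Foxc1), so leaving out 1 library gave 0 to 1 lower and 0 higher. Fewer samples enter those fits, and the cause was not tested. The sign of the log2 fold change held in every alternative for 12 of the 22 members and not for 10.

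With the replicate number as a block, 0 members were lower and 0 higher, Foxp2 had an adjusted p of 0.0511, and over all genes the counts were 170 lower and 62 higher beside 61 and 17 without it. The correlations of same-numbered libraries were 0.325, 0.287, 0.294 and 0.0635, and the libraries numbered 1, 2 and 3 matched their own number best while those numbered 4 did not. The labels name no shared litter or day and number 4 was under 0.1, so the numbers were not taken as pairs. DESeq2 called 160 genes lower and 54 higher over all genes. Leaving out single libraries gave 13 to 130 lower and 3 to 55 higher, and both extremes for lower counts came from controls, 13 without control 3 and 130 without control 4. Leaving out controls 1 and 2 gave 23 and 6, both libraries numbered 2 gave 1 and 1, and control 4 with mutant 2 gave 110 and 36.

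The sign turned for Foxq1 with edgeR (-0.0036) and DESeq2 (-0.0060). Without controls 1 and 2 it turned for Foxj1 (-0.052), Foxo3 (0.028) and Foxo4 (0.0058). Without control 4 and mutant 2 it turned for Foxd2 (0.13), Foxp4 (0.10), Foxq1 (-0.25) and Foxs1 (-0.15). Leaving out 1 library gave -0.12 to 0.075 for Foxd2, -0.012 to 0.20 for Foxj1, -0.0062 to 0.032 for Foxj3, -0.12 to 0.0041 for Foxn2 and -0.073 to 0.013 for Foxo1. It gave -0.066 to 0.017 for Foxo3, -0.13 to 0.058 for Foxp4, -0.29 to 0.25 for Foxq1 and -0.18 to 0.37 for Foxs1. For all of these the cause was not tested.

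Counts limit the low members: the 21 untested ones had means of at most 7.16, and 5 tested ones are absent from the fit with a minimum of 50.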

Other observations

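In the fit without a count filter, 18 members below the minimum had reads, and 1 of them, Foxf1a, had an unadjusted p under 0.05. It had 16 reads in all controls and 35 in all mutants, a log2 fold change of 1.11 (SE 0.407), and an adjusted p of 0.487, so it did not pass.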
